A study of Mus musculus with 11 samples.

Results

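Muscle stem cells of geriatric mice were sorted by the amount of VCAM1 on their surface, and the RNA of the VCAM1-low gate (2 samples) was compared with that of the VCAM1-high gate (3 samples). The genes compared were those at 1 RPKM or more in at least 2 of these 5 samples, which left 10946 of the 20640 gene symbols measured in all 11 samples of the study. RPKM is a read count scaled by gene length and by library size, so that levels of different genes can be compared. All mice carried Pax7-CreERT2 and Rosa-YFP, and all were given tamoxifen by mouth at 240 mg/kg for 5 days when they were 12 to 14 weeks old, so a cell that then expressed Pax7, and its descendants, carried YFP. Cells of the limb muscles were sorted as YFP+ and negative for Sca-1, CD31 and CD45 in mice older than 28 months. The other samples are geriatric VCAM1-negative cells (3) and YFP+ cells of middle-aged mice (3; 10 to 14 months in the sample labels), whose titles name no VCAM1 gate. The series' design text uses other names for the lower gates, and the names used here are those of the sample titles. The labels do not say whether replicates are separate animals or pools, so p-values reflect the spread of these samples alone, which may be technical.

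VCAM1 is a cell adhesion molecule of the immunoglobulin superfamily that binds integrins, above all those built on the α4 chain. In muscle it sits on satellite cells, the stem cells that lie between the fibre and its basal lamina, and antibodies to it are used to sort them. A stem cell gate on VCAM1 is therefore a gate on how strongly a cell carries a conventional marker of its kind. Satellite cells also make and remodel the matrix around them, including collagens, small proteoglycans and glycoproteins such as osteopontin.

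The libraries were of like depth, and 1 of them stood apart. Depth estimated from the steps of low RPKM values ran from 20.1 to 27.8 M reads in the 5 libraries. VCAM1-high replicate 3 carried more transcripts of other cell types than the 2 other VCAM1-high libraries: its summed macrophage and monocyte markers read 1318 RPKM against 33.7 and 52.9, and its erythroid markers 488 against 14.0 and 54.0. It also shared a trait with the other libraries numbered 3. Thoc2l read 8.13, 8.75 and 7.88 RPKM in VCAM1-high 3, VCAM1-negative 3 and middle-aged 3, and 0 in every other library. What the libraries numbered 3 have in common was not tested. Correlations of log2 values were higher within a replicate number across gates (0.981 for the libraries numbered 1 and 0.988 for those numbered 2) than between the 2 VCAM1-low libraries (0.966). Across genes, the SD of the log2 difference was 0.37 and 0.30 in the same-number pairs and 0.49 between VCAM1-low replicates 1 and 2. It was 0.45 between VCAM1-high 1 and 2, and 0.62 between either of them and VCAM1-high 3. Results are therefore given with and without the libraries numbered 3, and with the number as a block, that is, after differences shared by same-number libraries are taken out.

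Vcam1 itself, the gene behind the gate, read 418, 188 and 263 RPKM in VCAM1-high replicates 1 to 3 and 177 and 115 in VCAM1-low replicates 1 and 2. Both VCAM1-low libraries lie below all VCAM1-high libraries, and the ratio of high to low was 2.37 in the first pair and 1.63 in the second. The blocked difference was -1.11 ± 0.22 log2 units (limma adjusted p = 0.221). Since the cells were sorted on the protein, this is a check of the labels, and the RNA lies in the labelled direction in each pair. Pax7, the transcription factor gene of satellite cells, was low everywhere, at 5.16, 3.94 and 4.76 RPKM in VCAM1-high and 7.36 and 1.97 in VCAM1-low, and the groups overlap. Myod1 and Myf5, also transcription factor genes of the muscle lineage, were well expressed in both gates (338 to 618 and 86.1 to 176 RPKM in VCAM1-high, 618 to 653 and 46.0 to 124 in VCAM1-low).

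Without regard to replicate number, no gene passed between the gates. The limma fit of 4 group means to all 11 libraries called 0 of 10946 genes (0%), at an adjusted p under 0.05 and a change of at least 1 log2 unit. Its lowest adjusted p was 0.981, and 359 genes had an unadjusted p under 0.05. When the 8 geriatric libraries were fitted with a block for replicate number, limma called 2 genes (0.0183%), and both fell in VCAM1-low cells: Spp1 and C1qtnf3. In that fit 911 genes had an unadjusted p under 0.05 and lay lower in VCAM1-low (8.32%), against 166 that lay higher (1.52%). When all 11 libraries were blocked by number, limma called 0 genes (lowest adjusted p 0.494, 636 genes at an unadjusted p under 0.05).

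Spp1 encodes osteopontin, a secreted, acidic glycoprotein of matrix and a cytokine that binds integrins. It read 57.9, 177 and 69.9 RPKM in VCAM1-high replicates 1 to 3, and 16.0 and 46.7 in VCAM1-low replicates 1 and 2. Both VCAM1-low libraries lie below the lowest VCAM1-high library, although the second of them is close to it. Within each number the ratio of high to low was nearly the same, 3.62 and 3.80. The blocked fit gave a fall of 1.82 ± 0.14 log2 units (SE; limma adjusted p = 0.0107). Without the block the difference was -1.67 ± 0.86 (limma adjusted p = 0.981). Macrophages also make osteopontin, and the summed macrophage and monocyte markers read 33.7, 52.9 and 1318 RPKM in VCAM1-high and 112 and 88.9 in VCAM1-low. Their part in the Spp1 result was not tested. In bulk samples, fewer cells that express a gene and less of its RNA per cell cannot be told apart.

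C1qtnf3, or CTRP3, encodes a secreted protein of the C1q and TNF related family that is made by fat and cartilage cells among others. It read 57.2, 36.1 and 84.8 RPKM in VCAM1-high and 17.9 and 5.77 in VCAM1-low, with no overlap. The ratio of high to low was 3.19 in the first pair and 6.26 in the second. The blocked fit gave a fall of 2.11 ± 0.21 log2 units (limma adjusted p = 0.0398), and the fit without a block gave -2.33 ± 0.69 (limma adjusted p = 0.981). This call is the less firm of the 2: it is lost with a pseudocount of 0.1 (limma adjusted p = 0.0551), with the filter set over all 11 libraries (limma adjusted p = 0.0753) and after median-ratio scaling (limma adjusted p = 0.0869), where Spp1 keeps its call. It is also lost without VCAM1-negative replicate 1 or 2 (limma adjusted p = 0.0849 and 0.0855), and that of Spp1 without VCAM1-high replicate 1 (limma adjusted p = 0.0904). Both calls are lost without a filter on low values (limma adjusted p = 0.210 for Spp1 and 0.581 for C1qtnf3), without VCAM1-high replicate 2 (0.272 and 0.372) and without VCAM1-low replicate 1 (0.399 and 0.556) or 2 (0.706 for each).

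The promoters of the 2 genes are shown because these genes fell together. The windows run from 250 bases before to 10 bases after the start site in RefSeq on GRCm38.p6, an older build than that of the expression values. Capitals mark ACCACA, the core of the motif bound by RUNX factors, which was searched on both strands together with CANNTG (E-box), TGANTCA (AP-1) and TATAAA after the sequences had been read. The Spp1 window is chr5:104434861-104435120, plus strand, and that of C1qtnf3 is chr15:10952082-10952341, plus strand.
Spp1: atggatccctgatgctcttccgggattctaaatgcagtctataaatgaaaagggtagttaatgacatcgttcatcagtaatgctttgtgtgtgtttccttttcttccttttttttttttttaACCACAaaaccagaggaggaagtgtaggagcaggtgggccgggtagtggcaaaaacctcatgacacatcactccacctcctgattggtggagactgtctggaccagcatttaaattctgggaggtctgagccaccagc
C1qtnf3: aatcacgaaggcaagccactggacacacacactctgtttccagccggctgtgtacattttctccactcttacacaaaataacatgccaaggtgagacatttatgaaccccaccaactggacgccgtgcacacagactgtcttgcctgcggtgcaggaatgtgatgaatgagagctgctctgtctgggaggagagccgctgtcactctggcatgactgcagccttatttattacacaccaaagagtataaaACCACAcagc
Each window holds 1 RUNX core. In Spp1 its first base lies at position -128, and in C1qtnf3 at 1, counted from the start site. Of 32544 promoter windows of this length, 14.4% hold that core on either strand. Each window also holds 1 TATAAA (12.6% of all windows) and 1 E-box (67.7%), and neither holds TGANTCA (7.01%). These are matches of letters, and no binding was measured.

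Raising the filter to genes that average 5 RPKM over the 5 libraries left 7557 genes, and the blocked fit then called 8 of them (0.106%), all lower in VCAM1-low. Besides Spp1 and C1qtnf3 they are Dmp1, Col8a1, S100a4, Serpinf1, Lgals1 and Capn6. Spp1, C1qtnf3, Dmp1, Col8a1 and Serpinf1 encode secreted proteins, S100a4 and Lgals1 encode proteins found both inside and outside cells, and Capn6 encodes a calpain-family protein without protease activity that binds microtubules. The combination of this filter with the block was chosen after the data had been seen.

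Dmp1 encodes dentin matrix protein 1, an acidic phosphoprotein known from bone and teeth. It showed the steepest ratio of these genes, with 13.9, 27.2 and 9.50 RPKM in VCAM1-high against 1.80 and 3.94 in VCAM1-low. High exceeded low 7.74-fold in the first pair and 6.92-fold in the second, and the groups do not overlap. With the stricter filter it fell by 2.39 ± 0.30 log2 units (limma adjusted p = 0.0305), while over all 10946 genes the blocked fit gave an adjusted p of 0.0844 by limma.

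Col8a1, a short-chain collagen of vessel walls and other sheet-like matrices, read 21.0, 13.9 and 33.3 RPKM in VCAM1-high and 7.71 and 3.94 in VCAM1-low. It fell by 1.56 ± 0.18 (limma adjusted p = 0.0214 with the stricter filter). S100a4, a small calcium-binding protein that cells also release, read 13.5, 19.2 and 29.0 against 4.74 and 6.73, a ratio of 2.85 and 2.86 in the 2 pairs. Both genes are lower in each VCAM1-low library than in any VCAM1-high library.

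Serpinf1, or PEDF, a secreted serpin that binds collagen and counters vessel growth, read 48.3, 32.7 and 111 RPKM in VCAM1-high against 24.0 and 11.6 in VCAM1-low. Lgals1, the β-galactoside-binding lectin galectin-1, read 267, 91.1 and 230.0 against 120.0 and 29.6, so that VCAM1-low 1 lies above VCAM1-high 2. Capn6 read 79.3, 29.0 and 54.0 against 35.9 and 8.66, again with overlap of the groups. For both overlapping genes the same-number library of VCAM1-high is higher than its partner, by 2.22 and 3.08 times for Lgals1 and by 2.21 and 3.35 times for Capn6.

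**Figure D1:**
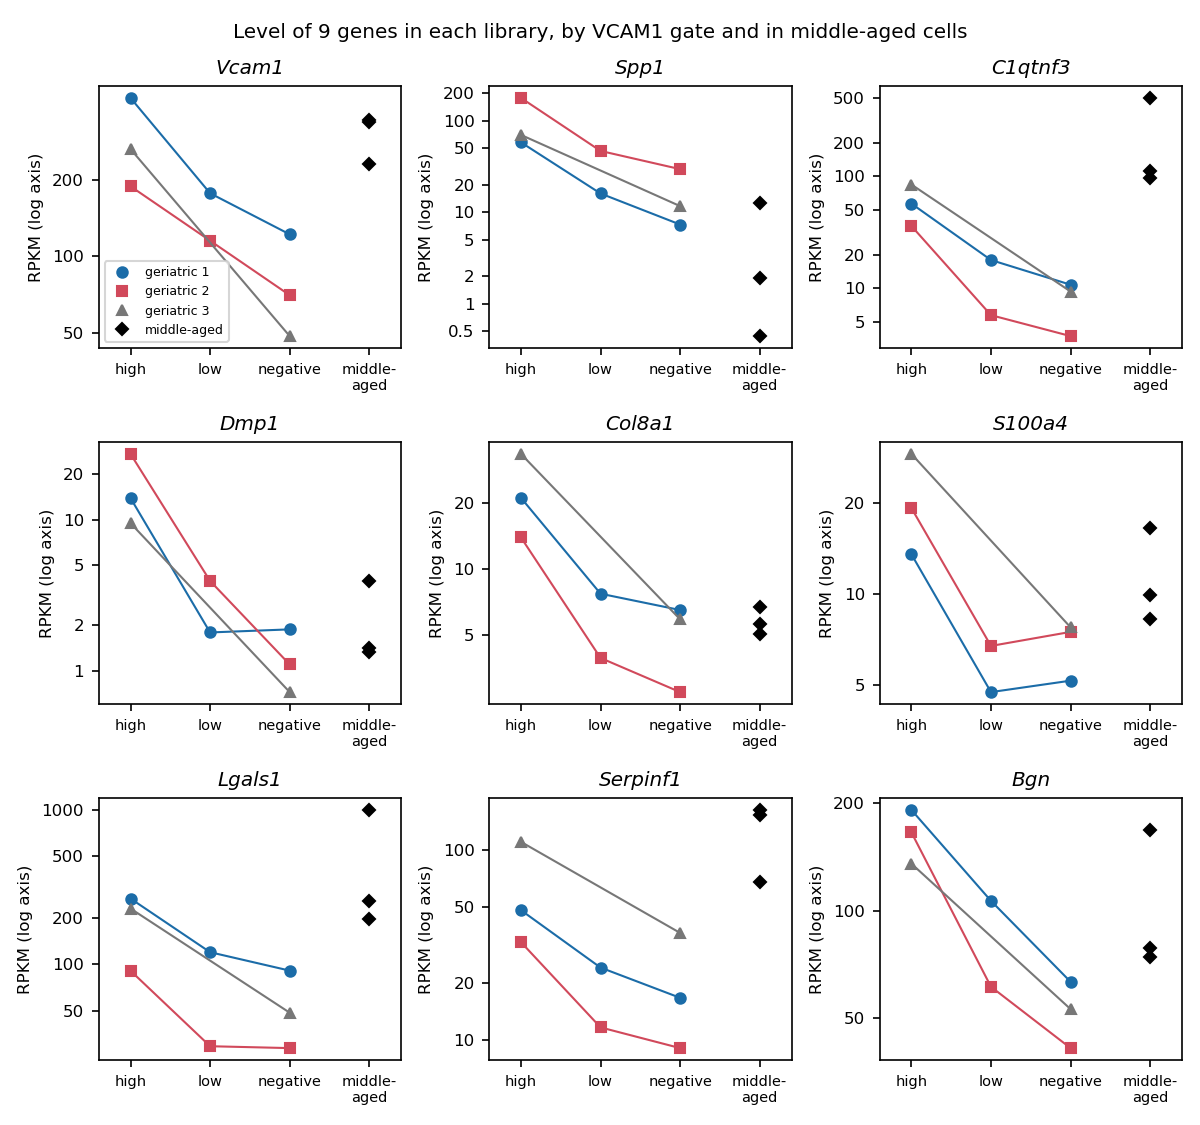
RPKM on a log axis of 9 genes in each library of the 3 geriatric gates and in the 3 middle-aged libraries (diamonds); lines join geriatric libraries with the same replicate number, and number 3 has no VCAM1-low library. From VCAM1-high to VCAM1-low both lines go down in all 9 panels, for example from 57.9 to 16.0 and from 177 to 46.7 RPKM for Spp1.

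Dmp1 and Spp1 belong to one cluster of genes for acidic matrix proteins of mineralized tissue on chromosome 5 (order from RefSeq on GRCm38.p6). Between and beside them lie Dspp, Ibsp and Mepe, whose products are known from dentin and bone. Those 3 genes read at most 0.0708 RPKM in any library of the study. The flanking gene Sparcl1, for a secreted relative of SPARC, read 28.9, 55.2 and 62.3 RPKM in VCAM1-high and 14.4 and 22.0 in VCAM1-low. Pkd2, the polycystin-2 channel gene on the other side, read 24.0, 22.2 and 25.9 against 15.6 and 16.5. Neither flanking gene passed in the blocked fit (limma adjusted p = 0.366 for Sparcl1 and 0.432 for Pkd2), though both VCAM1-low libraries lie below all VCAM1-high libraries for each. These neighbours were chosen by position and not by the rule for named genes.

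The extracellular matrix list held 37 genes, of which 34 could be tested. In both same-number pairs 28 of the 34 were lower in VCAM1-low and 0 were higher, where 42.5% of all genes tested were lower in both pairs and 18.1% higher. After median-ratio scaling, which centres the libraries on one another, 24 of the 34 were lower and 1 was higher, against 29.4% and 28.7% of all genes. Both VCAM1-low libraries lay below all 3 VCAM1-high libraries for 18 of the 34, against 13.2% of all genes. The list's median was -0.94 log2 units without a block and -0.58 with it, where the medians of all genes were -0.09 and -0.06. Only Spp1 and C1qtnf3 passed over all genes in the blocked fit, and 20 of the 34 had an unadjusted p under 0.05 on the lower side. The list was drawn up with earlier results of these data known and holds Spp1, C1qtnf3 and Dmp1, so its count is no independent evidence.

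The members named here with roles in fibrils and in the basal lamina differed in size of the change. Col1a2, a chain of type I collagen, read 2.63, 9.23 and 40.2 RPKM in VCAM1-high and 0.373 and 1.48 in VCAM1-low. Col3a1, type III collagen, read 29.0, 19.4 and 201 against 20.0 and 6.72. VCAM1-high 3 is the highest library for both, and VCAM1-low 1 overlaps VCAM1-high 2 for Col3a1. Among basal lamina genes, Lama2, Lamc1, Nid1 and Nid2 gave blocked differences of -0.22 ± 0.14, -0.23 ± 0.13, -0.21 ± 0.19 and -0.25 ± 0.16, and 0 of them passed (limma adjusted p from 0.589 to 0.741). These 4 genes lay closer to the median of all genes than those of the secreted proteins above. Other basal lamina genes on the list, such as Col4a1, Lamb1 and Hspg2, are not given here.

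Matricellular and proteoglycan genes were mixed. Bgn, for the small proteoglycan biglycan, read 191, 166 and 135 RPKM in VCAM1-high and 107 and 61.3 in VCAM1-low, with a blocked difference of -1.06 ± 0.17 (limma adjusted p = 0.196). Sparc, an abundant collagen-binding glycoprotein, read 152, 96.7 and 399 against 91.0 and 54.2. Ccn2, or CTGF, a target of TGF-β and YAP signalling, read 427, 361 and 481 against 255 and 151. All 3 lie lower in both VCAM1-low libraries than in any VCAM1-high library, and 0 of the 3 passed over all genes in the blocked fit. By contrast Ccn1 (blocked difference 0.05 ± 0.14), Dcn (0.23 ± 0.27), Lum (-0.04 ± 0.14) and Lox (-0.09 ± 0.30) differed little beside their errors, so the lower levels did not take in all abundant matrix genes.

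Leaving out the libraries numbered 3 changed how many genes passed. With numbers 1 and 2 of the 3 geriatric gates (6 libraries, 2 residual degrees of freedom) and the number as a block, 57 genes passed lower in VCAM1-low (0.521%) and 57 passed higher (0.521%), at a limma adjusted p under 0.05. Of these 114, 21 lower and 46 higher genes reached 1 log2 unit. These are counts of symbols, and some symbols hold equal values in every library, such as Ccl19 and Gm2023 on the lower side. This fit was added after the data had been seen, and it holds only 2 libraries per gate. VCAM1-high 3 had been set apart partly because it carried more transcripts of other cell types. Leaving it out therefore favours higher levels of such transcripts in VCAM1-low, so their p-values in this fit are a description only. Among the 34 matrix genes 11 passed, all lower: besides Spp1, C1qtnf3, Dmp1, Col8a1 and Col1a2 they are Lrrc17, Matn2, Tnc, Bgn, Sparc and Ccn2.

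The genes that fell in this smaller fit include further secreted signals. Pdgfc, a platelet-derived growth factor, read 4.07, 6.64 and 5.64 RPKM in VCAM1-high and 1.55 and 2.29 in VCAM1-low, and fell by 1.10 ± 0.20 log2 units (limma adjusted p = 0.0257). Angptl2, an angiopoietin-like secreted protein, read 23.3, 18.7 and 55.8 against 11.3 and 8.33, and Gdf6, a BMP-family ligand, 3.62, 2.51 and 1.93 against 1.25 and 0.798. The groups of all 3 are separate, which the rule for named genes required of Pdgfc and Angptl2. Ociad2, a gene of uncertain role, was at 2.71, 4.33 and 4.52 against 0.813 and 1.32, and Gcnt2, a glycosyltransferase gene of the I blood group antigen, at 7.68, 17.0 and 9.20 against 3.35 and 6.81 (limma adjusted p = 0.0567, not passing).

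**Figure D2:**
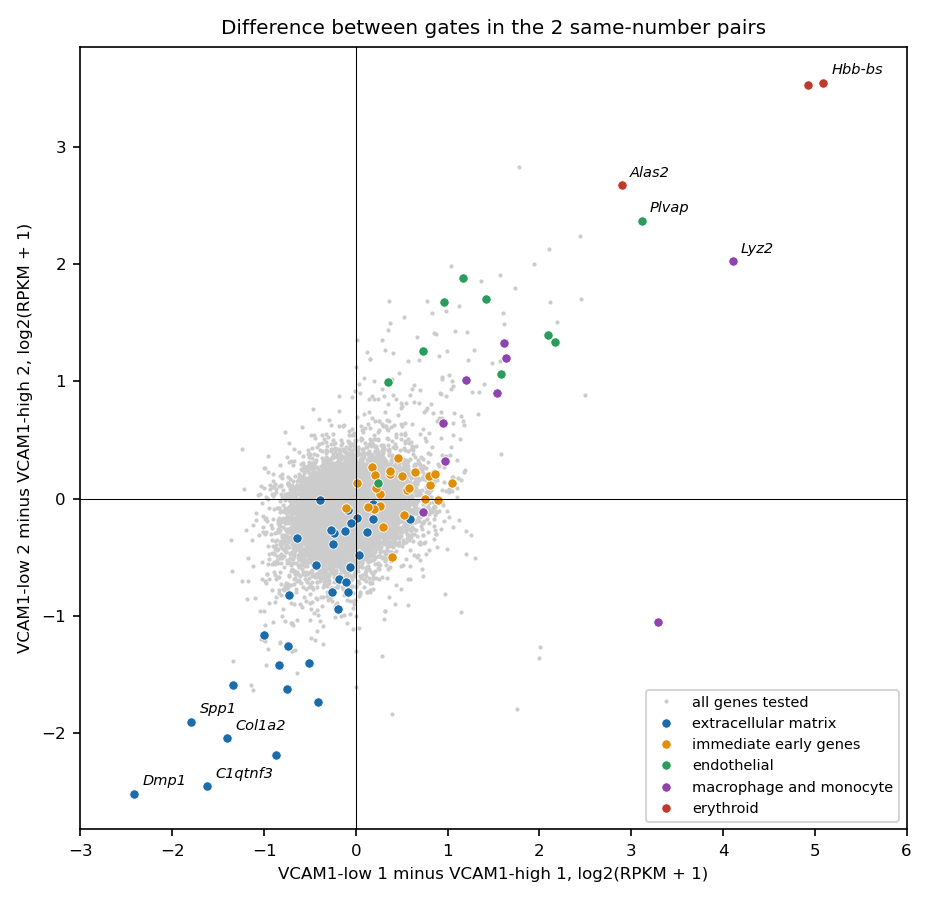
Each point is 1 of the 10946 genes tested; the axes give the VCAM1-low minus VCAM1-high difference in log2(RPKM + 1) of the libraries numbered 1 (horizontal) and 2 (vertical), with 5 gene lists in colour. Matrix genes reach furthest to the lower left, with Dmp1 at -2.41 and -2.52, while the 3 erythroid genes, the 10 endothelial genes and 7 of the 9 macrophage genes lie above 0 on both axes.

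Read pair by pair, 9 genes were lower by at least 1 log2 unit in both pairs and 37 were higher by as much. The 9 were Dmp1, C1qtnf3, Col1a2, Spp1, Capn6, Col8a1, Lgals1, S100a4 and Ociad2. For all genes the share higher in both pairs (18.1%) and lower in both (42.5%) moved to 28.7% and 29.4% after median-ratio scaling, so the surplus of lower genes depends on the scaling. Scaling to equal sums of RPKM gave 18.8% and 40.9%.

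Globin genes lead the 37 higher genes. The symbols Hbb-bt and Hbb-b2 hold equal values in every library, and Hbb-bs and Hbb-b1 the same low-to-high ratios (37.1 and 12.0 in the 2 pairs). These symbols are therefore not independent entries among the 37. Hbb-bs, an adult β-globin gene, read 10.8, 41.4 and 362 RPKM in VCAM1-high and 399.8 and 494 in VCAM1-low. Alas2, the first enzyme of haem synthesis in red cell precursors, read 0.379, 1.31 and 19.8 against 9.28 and 13.7. Both VCAM1-low libraries exceed all VCAM1-high libraries for Hbb-bs, but only the first and second of them for Alas2. In the fit without the libraries numbered 3, Hbb-bs rose by 4.32 ± 0.26 log2 units and Alas2 by 2.79 ± 0.17 (limma adjusted p = 1.41e-05 for each). With those libraries kept, the blocked differences were 3.42 ± 1.08 and 2.15 ± 0.76 (limma adjusted p = 0.430 and 0.432). The smaller fit leaves out VCAM1-high 3, which its erythroid sum had helped to set apart. The p-values of that fit are therefore a description only.

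Endothelial genes also lay higher in VCAM1-low in both pairs. Plvap, a protein of the diaphragms of fenestrated and venous endothelium, read 0.744, 5.88 and 11.4 RPKM in VCAM1-high and 14.1 and 34.6 in VCAM1-low. Pecam1, which encodes CD31 and so belongs to the markers sorted against, read 0.906, 2.05 and 10.2 against 4.10 and 8.95. All 10 endothelial markers tested, of 12 on the list, were higher in VCAM1-low in both pairs, against 18.1% of all genes. Without the libraries numbered 3, 8 of them passed, against 0.521% of all genes on the higher side. VCAM1-high 3 has the highest endothelial sum of its gate, so leaving it out favours such passes. The 8 are therefore no independent evidence. The blocked fit with all geriatric libraries passed 0 of the 10. The list's sum was 27.1, 53.9 and 155 RPKM in VCAM1-high and 75.9 and 151 in VCAM1-low, so the groups overlap through VCAM1-high 3.

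Macrophage genes were split by the library that stood apart. Lyz2, the lysozyme of myeloid cells, read 0.426, 6.82 and 591 RPKM in VCAM1-high and 23.5 and 30.8 in VCAM1-low. It was higher in VCAM1-low in both pairs, by 4.10 and 2.03 log2 units, and lower than in VCAM1-high 3. Of 14 macrophage and monocyte markers 9 were tested, 7 were higher in both pairs (18.1% of all genes), and 6 passed on the higher side without the libraries numbered 3 (0.521% of all genes) against 0 with them. These markers had helped to set VCAM1-high 3 apart, so the 6 are no independent evidence. Summed, the list read 112 and 88.9 RPKM in VCAM1-low, between the 33.7 and 52.9 of VCAM1-high 1 and 2 and the 1318 of VCAM1-high 3. Ly6a (Sca-1) followed the same order, at 2.88, 7.53 and 40.4 against 10.5 and 18.2.

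Sums over the other lists of foreign cells mostly overlapped between the gates. Summed fibro-adipogenic progenitor markers read 1684, 1221 and 2312 RPKM in VCAM1-high and 1698 and 1176 in VCAM1-low, pericyte and smooth muscle markers 43.9, 39.5 and 72.1 against 45.4 and 46.3, and lymphocyte markers 7.13, 8.68 and 6.56 against 6.77 and 6.33. Neutrophil (2.84 to 58.0 against 8.80 and 9.72), tenocyte (27.5 to 60.7 against 34.7 and 28.5), Schwann cell (8.38 to 12.8 against 13.5 and 13.9) and adipocyte markers (5.20 to 46.3 against 7.36 and 10.1) were low in sum, and of these only the Schwann cell sums did not overlap. Gsn and Dcn carry most of the fibro-adipogenic sum: Gsn, the actin-severing gelsolin, read 1250.1, 646 and 1436 RPKM in VCAM1-high and 1116 and 665 in VCAM1-low. Of the 9 members tested, 3 were lower in both pairs with an unadjusted p under 0.05 in the blocked fit, against 8.32% of all genes on the lower side. They are Col3a1 (-1.21 ± 0.35), Col1a1 (-0.69 ± 0.27) and the matrix protein gene Dpt (-0.53 ± 0.12), and another 3 were higher in both pairs. Pdgfra, the receptor that defines these cells, read 0.500, 0.637 and 2.04 RPKM against 0.717 and 0.874. The part of fibro-adipogenic cells in the matrix result was not tested. The macrophage and endothelial sums moved against the matrix genes in both pairs, and their part in the matrix result was not tested. Of the sort's other negative markers, Ptprc (CD45) read 0.00952, 0.180 and 3.30 RPKM in VCAM1-high and 0.371 and 0.166 in VCAM1-low, too low to be tested.

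**Figure D3:**
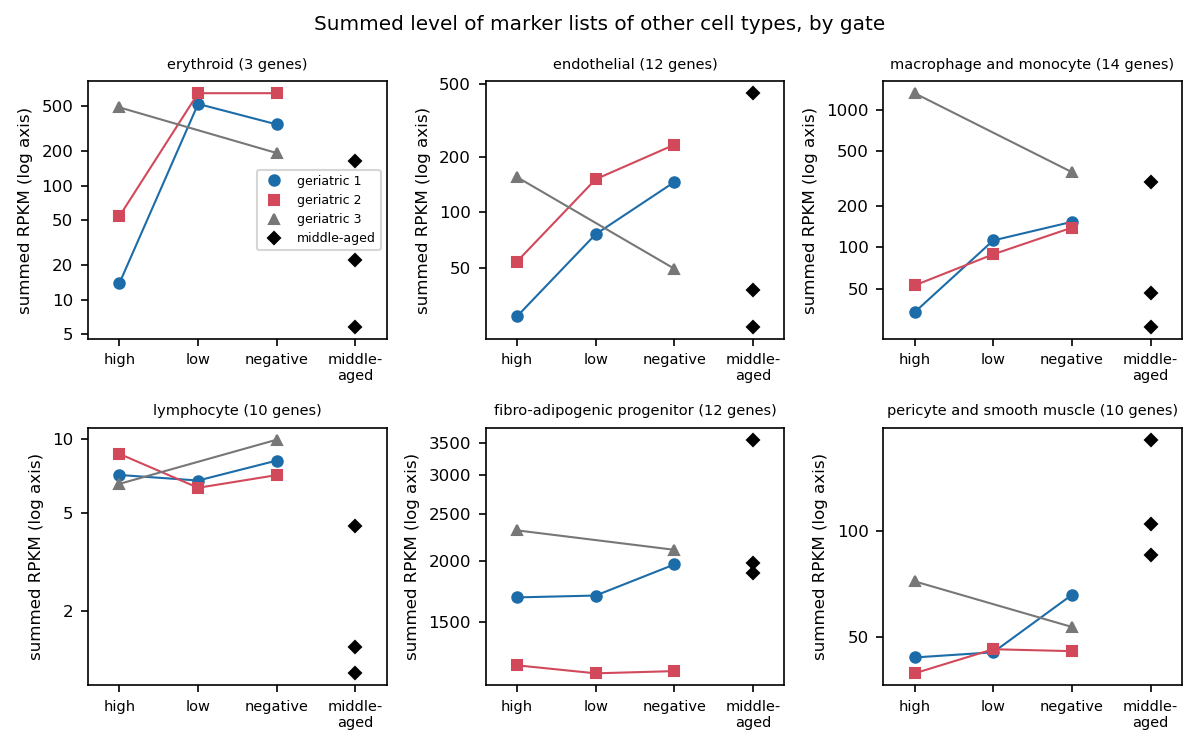
Summed RPKM, on a log axis, of 6 marker lists of other cell types in each library by gate, with lines joining same-number geriatric libraries and diamonds for middle-aged libraries. Erythroid, endothelial and macrophage sums are higher in VCAM1-low than in VCAM1-high for numbers 1 and 2, and VCAM1-high 3 (488, 155 and 1318 RPKM) lies above both VCAM1-low libraries for macrophage genes.

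Further genes among the 37 stand on none of the lists. Aqp1, a water channel of red cells and endothelium, read 2.55, 8.04 and 32.0 RPKM in VCAM1-high and 14.3 and 38.6 in VCAM1-low, and it rose by 2.12 ± 0.16 log2 units in the fit without the libraries numbered 3. In that fit Lrg1, a secreted leucine-rich glycoprotein, rose by 2.07 ± 0.18, Ackr1, the chemokine-binding Duffy antigen of red cells and venules, by 1.97 ± 0.25, and Ccl6, a chemokine of myeloid cells, by 2.30 ± 0.27 (limma adjusted p of the 4 from 9.43e-05 to 0.0032). They did not pass with those libraries kept (limma adjusted p from 0.634 to 0.753). The 4 overlap through VCAM1-high 3 and were picked after their values had been seen.

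The rule for named genes chose 4 more genes that lay higher in VCAM1-low, by less than 1 log2 unit in the blocked fit, besides Chac1. Rgs16, a regulator that shortens G-protein signalling, read 12.7, 13.9 and 10.7 RPKM in VCAM1-high and 21.1 and 25.3 in VCAM1-low, and it rose by 0.75 ± 0.15 log2 units in the fit without the libraries numbered 3 (limma adjusted p = 0.044). Chst8, a sulfotransferase of glycoprotein sugars, read 3.07, 5.56 and 1.99 against 5.72 and 8.88. Bpgm, which makes the haemoglobin ligand 2,3-bisphosphoglycerate, read 16.2, 12.8 and 16.2 against 23.4 and 20.2, and Hlf, a clock-controlled transcription factor, 2.81, 3.79 and 3.16 against 4.51 and 5.63. The rule took only genes with both VCAM1-low libraries above every VCAM1-high library (3.97% of all genes). The separation of these 4 genes is therefore part of their choice and no result. In the blocked fit with all geriatric libraries 0 of the 4 passed (limma adjusted p from 0.257 to 0.430).

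Immediate early genes, the transcription factors and regulators that cells switch on within minutes of a stimulus, including tissue dissociation, lay slightly higher in VCAM1-low. Of 25 tested, 16 were higher in both pairs and 1 was lower, against 18.1% and 42.5% of all genes, and after median-ratio scaling 20 were higher and 0 lower. Both VCAM1-low libraries exceeded all VCAM1-high libraries for 9 of the 25, against 3.97% of all genes. The median blocked difference was 0.23 log2 units, 7 had an unadjusted p under 0.05 on the higher side (1.52% of all genes), and 0 passed. Klf4 read 87.0, 133 and 81.9 RPKM in VCAM1-high and 181 and 146 in VCAM1-low, Maff 120.0, 122 and 77.0 against 219.7 and 141, and Atf3 1110.3, 1092 and 799.9 against 1531 and 1385. Jund, the AP-1 subunit, read 1571, 1908 and 1254 against 2756 and 2071. These 4 were named for the smallest unadjusted p of the list in the limma fit without a block. They do not stand for the whole list. For all 4 the groups are separate, and the pair numbered 1 differs more than the pair numbered 2.

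Stress genes were mixed. Of 21 genes of the unfolded protein and integrated stress responses, 10 were higher and 5 lower in both pairs (18.1% and 42.5% of all genes), with a median blocked difference of 0.14, and 0 passed. Chac1, a glutathione-degrading enzyme induced through ATF4, read 4.24, 3.57 and 1.84 RPKM against 6.62 and 6.13 in VCAM1-low, whereas Pdia4, an endoplasmic reticulum disulfide isomerase, read 53.4, 29.1 and 56.9 against 37.2 and 17.9. Heat shock genes were higher in both pairs for 7 of 14 (18.1% of all genes), but followed the libraries numbered 1. The inducible chaperone Hspa1a read 2579.9, 807 and 349 RPKM in VCAM1-high and 6135 and 649 in VCAM1-low, so the pairs differ in direction. The median of the heat shock list, 0.47 without a block and 0.19 with it, was -0.26 when VCAM1-low replicate 1 was left out.

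Of 19 surface protein genes of satellite cells tested, Vcam1 included, 10 were lower in both pairs and 2 higher, against 42.5% and 18.1% of all genes. Both VCAM1-low libraries lay below all VCAM1-high libraries for 6 of the 19, against 13.2% of all genes. The median blocked difference was -0.26. Ncam1, an adhesion molecule of the same superfamily, read 46.1, 45.0 and 69.1 RPKM in VCAM1-high and 30.9 and 31.6 in VCAM1-low (blocked difference -0.52 ± 0.12, limma adjusted p = 0.272). Itga7, the laminin-binding integrin chain, read 61.6, 38.7 and 103 against 44.3 and 22.2, and Cav1, the caveolae protein, 229, 138 and 322 against 133 and 121. Cd82, Fgfr4 and Tenm4 differed by -0.02 ± 0.16, 0.11 ± 0.15 and -0.06 ± 0.18 in the blocked fit. In the fit without the libraries numbered 3 only Vcam1 passed on this list (limma adjusted p = 0.00948).

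Of the 7 genes for partners of VCAM1, 4 could be tested. Itgb1, the β1 chain shared by most integrins, read 157, 142 and 197 RPKM in VCAM1-high and 95.5 and 123 in VCAM1-low. Msn, for moesin, which links membrane proteins to actin, read 149, 155 and 200.3 against 104 and 138. Rdx, the related radixin, was 43.3, 42.5 and 43.6 against 34.8 and 41.0. These 3 lay lower in both VCAM1-low libraries than in any VCAM1-high library (13.2% of all genes), while Ezr, for ezrin, was higher in both pairs (0.09 and 0.35 log2 units). None of the 4 passed: limma, with the block, gave adjusted p from 0.430 to 0.821, with 2 unadjusted p under 0.05.

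Transcription factors of the muscle lineage lay more often higher than lower in VCAM1-low, but they did not all move one way. Of 13 tested of 16, 2 were lower and 6 higher in both pairs (42.5% and 18.1% of all genes), with a median blocked difference of 0.02, and 0 passed. After median-ratio scaling 1 was lower and 7 were higher (29.4% and 28.7% of all genes). Myod1 read 395, 618 and 338 RPKM in VCAM1-high and 618 and 653 in VCAM1-low, while Myf5 read 176, 86.1 and 124 against 124 and 46.0 (blocked differences 0.48 ± 0.23 and -0.68 ± 0.19, limma adjusted p = 0.540 and 0.400). These 2 paralogous factors lie on opposite sides of 0 in both pairs. Myog, the factor of differentiating cells, read 4.63, 11.6 and 59.6 against 5.86 and 3.98, so its group difference rests on VCAM1-high 3.

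Quiescence and Notch genes lay on both sides, with 7 of 27 lower and 9 higher in both pairs (42.5% and 18.1% of all genes). Beside all genes they were more often higher. Their median blocked difference was 0.01. After median-ratio scaling 5 were lower and 11 higher (29.4% and 28.7% of all genes). Hes1, a Notch target, read 105, 144 and 71.7 RPKM in VCAM1-high against 135 and 161 in VCAM1-low. Col5a3, a type V collagen chain whose gene is a Notch target in satellite cells, read 9.86, 5.45 and 25.7 against 5.17 and 2.88 (blocked difference -0.80 ± 0.15, limma adjusted p = 0.217). Col5a1 and Col5a2 were lower as well, with blocked differences of -0.35 ± 0.14 and -0.48 ± 0.18. Within this list the collagen V genes lay on the low side, while Rbpj, the DNA-binding partner of Notch, differed by 0.07 ± 0.14.

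Genes of commitment and early fusion were lower in both pairs for 7 of 13 (42.5% of all genes) and higher for 1, with a median blocked difference of -0.40. Acta2, the smooth muscle actin that myoblasts also make, read 89.7, 51.2 and 119 RPKM in VCAM1-high and 51.4 and 26.1 in VCAM1-low, and fell by 0.87 ± 0.15 in the fit without the libraries numbered 3 (limma adjusted p = 0.0183). Chrna1, the acetylcholine receptor α subunit, read 38.3, 14.6 and 36.7 against 22.8 and 7.80. Des, for the intermediate filament desmin, was nearly level, at 488, 439 and 696 against 462 and 436.

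Respiratory chain genes were lower in both pairs for 27 of 29 (42.5% of all genes) and higher for 0, with a median blocked difference of -0.28. After median-ratio scaling the counts were 19 and 2. Cox7c, a small cytochrome oxidase subunit, read 42.3, 31.1 and 22.1 RPKM in VCAM1-high and 25.1 and 19.4 in VCAM1-low, and Ndufa4 79.8, 71.7 and 42.6 against 49.9 and 46.2. Both show overlap through VCAM1-high 3, which is the lowest of its gate. Both VCAM1-low libraries lay below all VCAM1-high libraries for 7 of the 29, against 13.2% of all genes, and 0 of 29 passed the blocked fit. Cytosolic ribosomal protein genes were lower in both pairs for 35 of 39 (42.5% of all genes) and higher for 0, by a median of -0.18 in the blocked fit and -0.03 without the block. Median-ratio scaling left 29 lower and 3 higher. For 0 of the 39 did both VCAM1-low libraries lie below all VCAM1-high libraries, against 13.2% of all genes.

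**Figure D4:**
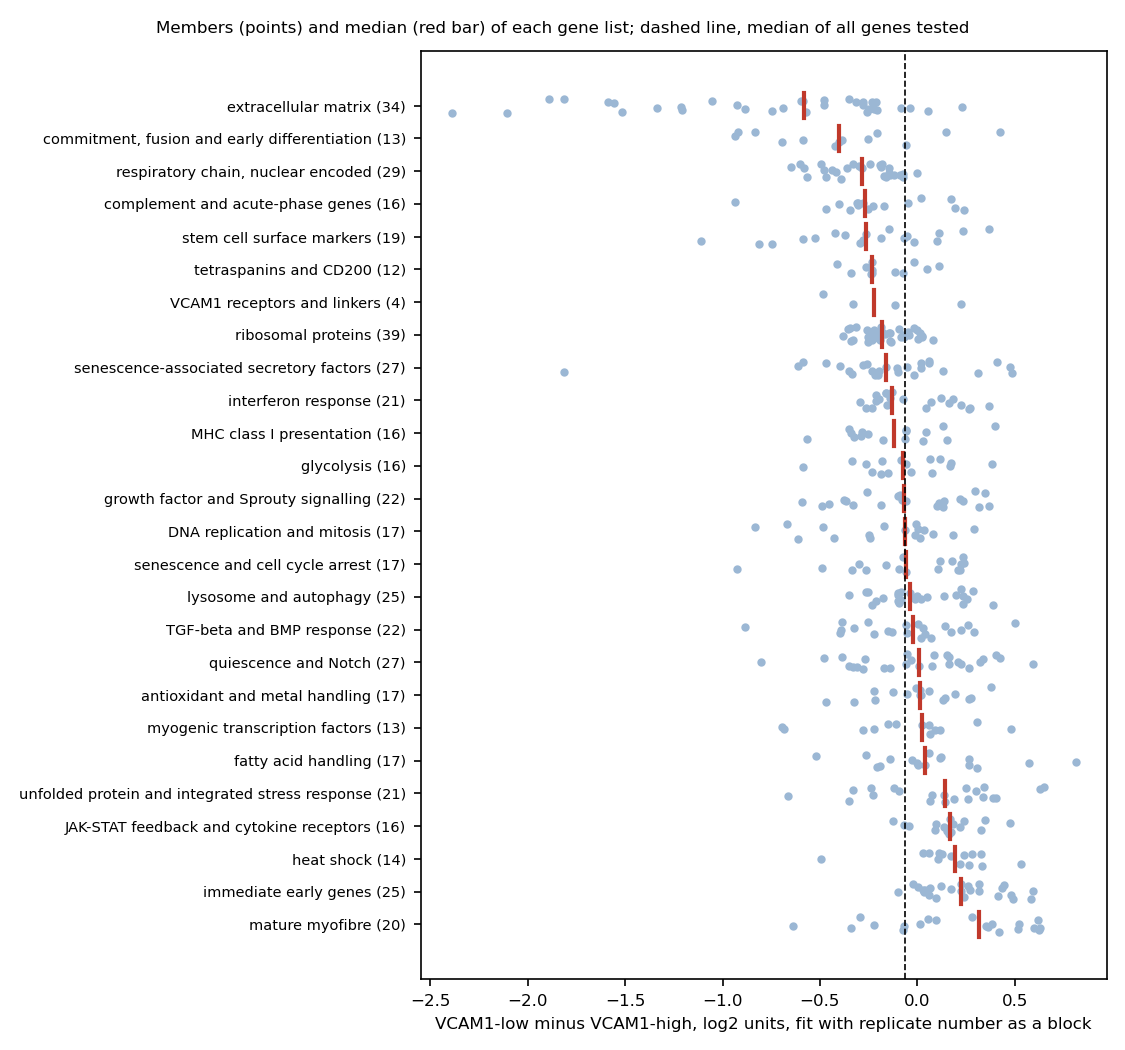
Each row is a list of genes with a shared role and the number tested in parentheses; points are the blocked VCAM1-low minus VCAM1-high differences in log2(RPKM + 1) of its members, red bars the list medians and the dashed line the median of all genes (-0.06). The matrix list has the lowest median of the larger lists (-0.58), and immediate early genes lie to the right (0.23).

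For the remaining lists named here, counts are read against the 42.5% of all genes that were lower in both pairs and the 18.1% that were higher. Among senescence arrest genes 6 of 17 were lower and 7 higher, and among senescence-associated secretory genes 10 of 27 were lower and 6 higher, with Spp1 the only one to pass in the blocked fit. JAK-STAT genes were higher for 9 of 16 and lower for 1, and the complement list lower for 9 of 16 and higher for 3. Interferon response genes were lower for 9 of 21 and higher for 4. Mature myofibre genes were lower for 4 of 20 and higher for 6, and their median was -0.25 without a block and 0.31 with it.

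VCAM1-low was also compared with VCAM1-negative, and not all genes that were lower in VCAM1-low were lower still. These comparisons share the VCAM1-low libraries, so the values are set side by side and not combined. Spp1 read 7.32, 29.5 and 11.6 RPKM in VCAM1-negative replicates 1 to 3 (blocked difference -0.80 ± 0.14, limma adjusted p = 0.220). Replicates 1 and 2 lie below the same-number VCAM1-low libraries, and replicate 3 has no such partner. C1qtnf3 read 10.8, 3.75 and 9.38 (-0.67 ± 0.21, limma adjusted p = 0.999), and Dmp1 1.88, 1.10 and 0.725. S100a4, at 5.17, 7.49 and 7.76, lay at the VCAM1-low level, with a blocked difference of 0.03 ± 0.17. For these genes the step from VCAM1-high to VCAM1-low was -1.82, -2.11, -2.39 and -1.45. From VCAM1-low to VCAM1-negative, Col8a1 gave a blocked difference of -0.40 ± 0.18, Angptl2 0.02 ± 0.16 and Col1a2 0.43 ± 0.35. Vcam1 itself read 122, 70.4 and 48.6 in the negative gate. Its replicate 1 lies above VCAM1-low 2 (115) and below VCAM1-low 1 (177).

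Between VCAM1-negative and VCAM1-low, limma with the block called 4 of 10946 genes (0.0365%), all higher in VCAM1-negative: Acta1, Myl1, Tnnc2 and Ckm, genes of contractile fibres and their energy supply. Acta1 read 280.4, 3040 and 2254 RPKM in VCAM1-negative. In the VCAM1-low libraries it was at 15.4 and 63.2, and in the VCAM1-high libraries at 22.3, 48.4 and 58.3. It rose by 4.91 ± 0.43 log2 units from VCAM1-low to VCAM1-negative (limma adjusted p = 0.0253). Between VCAM1-low and VCAM1-high Acta1 differed by 0.01 ± 0.43.

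Middle-aged libraries give a further reference, although their labels name no VCAM1 gate. Spp1 was low there, at 12.6, 0.442 and 1.90 RPKM, and Dmp1 at 3.96, 1.41 and 1.33. C1qtnf3 was at 503, 97.4 and 113, all above the geriatric VCAM1-high libraries, and Vcam1 at 336, 344 and 230.1. Spp1 and C1qtnf3, which fell together between the geriatric gates, lie on opposite sides of the VCAM1-high level in the middle-aged cells. The rule for named genes did not choose Bgn, Capn6, Ccn1, Cd82, Col5a1, Cox7c, Dcn, Des, Fgfr4, Gdf6, Itga7, Lama2, Lamc1, Lgals1, Lox, Lrrc17, Lum, Lyz2, Matn2, Ndufa4, Nid1, Nid2, Ociad2, Rbpj, Sparc, Tenm4 or the 4 genes of contractile fibres, which were picked after their values had been seen.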

How the data were processed

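The authors sequenced low-input libraries (SMART-Seq v4) of sorted cells and deposited 1 table of RPKM values for 20640 gene symbols, of which 2161 read 0 in all 11 libraries. The submitters' processing notes name STAR 2.7.5b, Bowtie2 2.1.0, cutadapt 3.1 and SAMtools 0.1.19, and the build GRCm39; the counting tool, annotation and gene lengths were not given in the sources used here. Raw counts were not used, so the tests are on log2(RPKM + 1), which understates changes of low genes. Depth was estimated from the steps of values up to 0.1 RPKM in 3428 single-transcript genes; 65.2% to 68.8% of the low values in the VCAM1-high libraries came within 0.1 of a whole read, so no reads were recovered. Genes at 1 RPKM or more in 2 of the 5 compared libraries were fitted with limma 3.58.1 in R 4.3.3 (trended variance), with Benjamini-Hochberg adjustment over all 10946 genes and a call at an adjusted p under 0.05 and at least 1 log2 unit. The first fit used 4 group means over 11 libraries (7 residual degrees of freedom), and the blocked fit the replicate number in the 8 geriatric libraries (3 residual degrees of freedom). The script was tested on simulated data.

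Deviations of same-number libraries from their gate's mean correlated at 0.385 to 0.608 in all 7 geriatric pairs, above the 0.1 required, so the numbers were taken to pair the libraries; the labels do not say that a number is 1 animal. Named genes are the sort markers, genes past the threshold, and up to 10 per direction that changed alike in both pairs. Apart from the sort markers, these had a mean of 5 RPKM or more in the higher gate. Both of their VCAM1-low libraries also had to lie outside the VCAM1-high range, so their separation was selected for. Up to 4 more per list are those with the smallest unadjusted p in the limma fit without a block. Lists and members were chosen with earlier results of these data known. Alternatives were other pseudocounts, filters and scalings, and leaving out libraries. Promoters came from RefSeq tables on GRCm38.p6, used for sequence and gene order only.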

Additional observations from a re-analysis of the deposited data

How the results depend on the processing

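Calls rest on few libraries. Without a block the count was 0, and it stayed 0 when any single library was left out. With the replicate block it was 2 in the 8 geriatric libraries, both lower, and 82 in the 5 compared libraries (55 higher, 27 lower; 1 residual degree of freedom). In the 8-library blocked fit the count was 1 with a pseudocount of 0.1, 0 with no filter, 1 with the filter over 11 libraries, 8 with a mean of 5 RPKM, 1 after median-ratio scaling, and 67 without the VCAM1-high and VCAM1-negative libraries numbered 3 (46 higher, 21 lower). Leaving out 1 library at a time gave 0 to 68 calls (0 to 46 higher, 0 to 22 lower): 68 without VCAM1-high 3 or VCAM1-negative 3, 1 without VCAM1-high 1 or VCAM1-negative 1, and 0 without VCAM1-high 2, VCAM1-low 1 or VCAM1-low 2. Number 3 has no VCAM1-low library, so when 1 library numbered 3 is left out, the other stands alone in its block. It then adds nothing to the difference between the gates. Leaving out either or both gave the same estimates (-1.85 for Spp1 and -2.04 for C1qtnf3), so these are not separate checks. The cause of the other differences in count was not tested.

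Without the block, Cd63 (-0.02) and Cd200 (-0.08) turned to 0.079 and 0.021 after median-ratio scaling. When 1 library was left out, Cd63 ran from -0.31 to 0.16, Cd200 from -0.53 to 0.38, Ly6a from -0.34 to 1.37, Lyz2 from -1.28 to 3.06, Pax7 from -0.91 to 0.58 and Myf5 from -1.41 to 0.0038. The other fold changes were counted once per gene and alternative setting, so they are not counts of genes. Of them 1330 kept direction and side of the threshold, 46 gained it and 14 lost it. Without VCAM1-high 3 the matrix list's median was -0.47 and the macrophage list's 1.12. At the lowest depth, 1 read per kilobase is 0.05 RPKM, so values near that rest on single reads.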
